A study of Homo sapiens with 3 samples.

Results

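The mitochondrial ribosome makes the proteins that the mitochondrial genome encodes, and its protein subunits are themselves encoded by nuclear genes named MRPL for the large subunit and MRPS for the small subunit. These genes were taken from a study of UM-UC-3, a human bladder cancer cell line, by their symbols: every probe set that named a single gene whose symbol starts with MRPL or MRPS plus a digit, with the brightest probe set standing for its gene. The rule found 77 of the 19775 genes on the array. Of these, 75 are protein genes and are the mitochondrial ribosomal protein genes described here, 50 of the large and 25 of the small subunit. The other 2 are the antisense transcript MRPL20-AS1 and the pseudogene MRPL45P2, which are given apart.

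Cells were transfected for 48 h with DANCR siRNA1, DANCR siRNA2 or a negative control siRNA, each at 75 nM with a lipid reagent, and each of the 3 groups was measured on 1 Affymetrix array. DANCR is a long noncoding RNA, and the study compared the siRNAs to find genes that depend on it. The labels name 1 cell line and no repeat transfections, so no difference below has a replicate check and no p-value was computed. The siRNA strands are shown as the labels give them, because they define the groups, with the overhang in capitals.
DANCR siRNA1: gcguacuaacuuguagcaaTT
DANCR siRNA2: gagcuagagcagugacaauTT
control siRNA: uucuccgaacgugucacguTT

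Values are intensities on a linear scale, as deposited, and differences are log2 ratios of intensities. The median of all values, 10.5, served as a floor, and a gene counted as measured when at least 1 array lay above it, which held for 12436 genes. DANCR, the targeted RNA, had an intensity of 116 with siRNA1 and 126 with siRNA2, against 671 with the control siRNA. The median intensity was 10.5 on each array. The ratio of the 3' to the 5' probe set of a gene is a sign of RNA integrity. For ACTB this ratio was 11.8 with siRNA1 and 14.4 with siRNA2, against 11.9 with the control siRNA. For GAPDH the ratio was 1.285 with siRNA1 and 1.355 with siRNA2, against 1.247 with the control siRNA. Among epithelial and urothelial markers 5 of 14 were measured, with KRT18 at 711 and 1022, against 1315 in the control, while EPCAM, CDH1 and the uroplakins lay below the floor on every array. KRT7 had 20.0 and 23.9, against 28.2, and KRT8 had 21.5 and 21.2, against 21.5. GATA3 had 20.2 and 35.2, against 20.2, and PPARG had 14.9 and 14.9, against 12.5. The mesenchymal intermediate filament VIM was at 4412 and 4861, against 5322. Other mesenchymal markers were ZEB1, at 358 and 281, against 379, and CDH2, at 61.9 and 94.5, against 82.2. FN1 was above the control with each siRNA, at 30.2 and 43.9, against 27.0. Markers of leukocytes, endothelium, red cells and liver reached at most 25.01.

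Mitochondrial ribosomes build only membrane subunits of the respiratory chain and the ATP synthase, so a cell needs them for oxidative phosphorylation. Part of the proteins descend from those of the bacterial ribosome and keep its numbering, while others were gained in mitochondria and have no bacterial counterpart. All of them are made in the cytosol and imported, and they assemble on rRNAs that the mitochondrion itself transcribes. In the RefSeq annotation (GRCh38.p14) the 75 genes lay on 21 chromosomes.

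As a group the genes lay close to the control with each siRNA. Every one of the 75 genes was above the floor on each array, with intensities from 29.5 to 2269.7 (the extremes being MRPL38 with siRNA1 and MRPL3 with siRNA2). The median log2 ratio over the set was 0.07 with siRNA1 and 0.10 with siRNA2, beside 0.00 with each siRNA over all 12436 measured genes. Between the siRNA arrays the median was 0.00. With siRNA1, 43 genes were above the control, 26 below and 6 equal to it, and with siRNA2, 49 were above, 21 below and 5 equal. Of all 12436 measured genes, 5257 were above, 4908 below and 2271 equal with siRNA1, and 5595, 4498 and 2343 with siRNA2. A ratio within 0.25 of 0 was found for 44 of 75 genes with siRNA1 (58.7%) and 49 of 75 with siRNA2 (65.3%). Over all measured genes those shares were 61.1% and 62.0%. Over the 7263 measured genes in the same intensity range those shares were 53.1% and 54.3%, and the medians were 0.01 and 0.05. As the measurements are of bulk RNA, less RNA per cell and fewer cells that express a gene cannot be told apart.

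**Figure D1:**
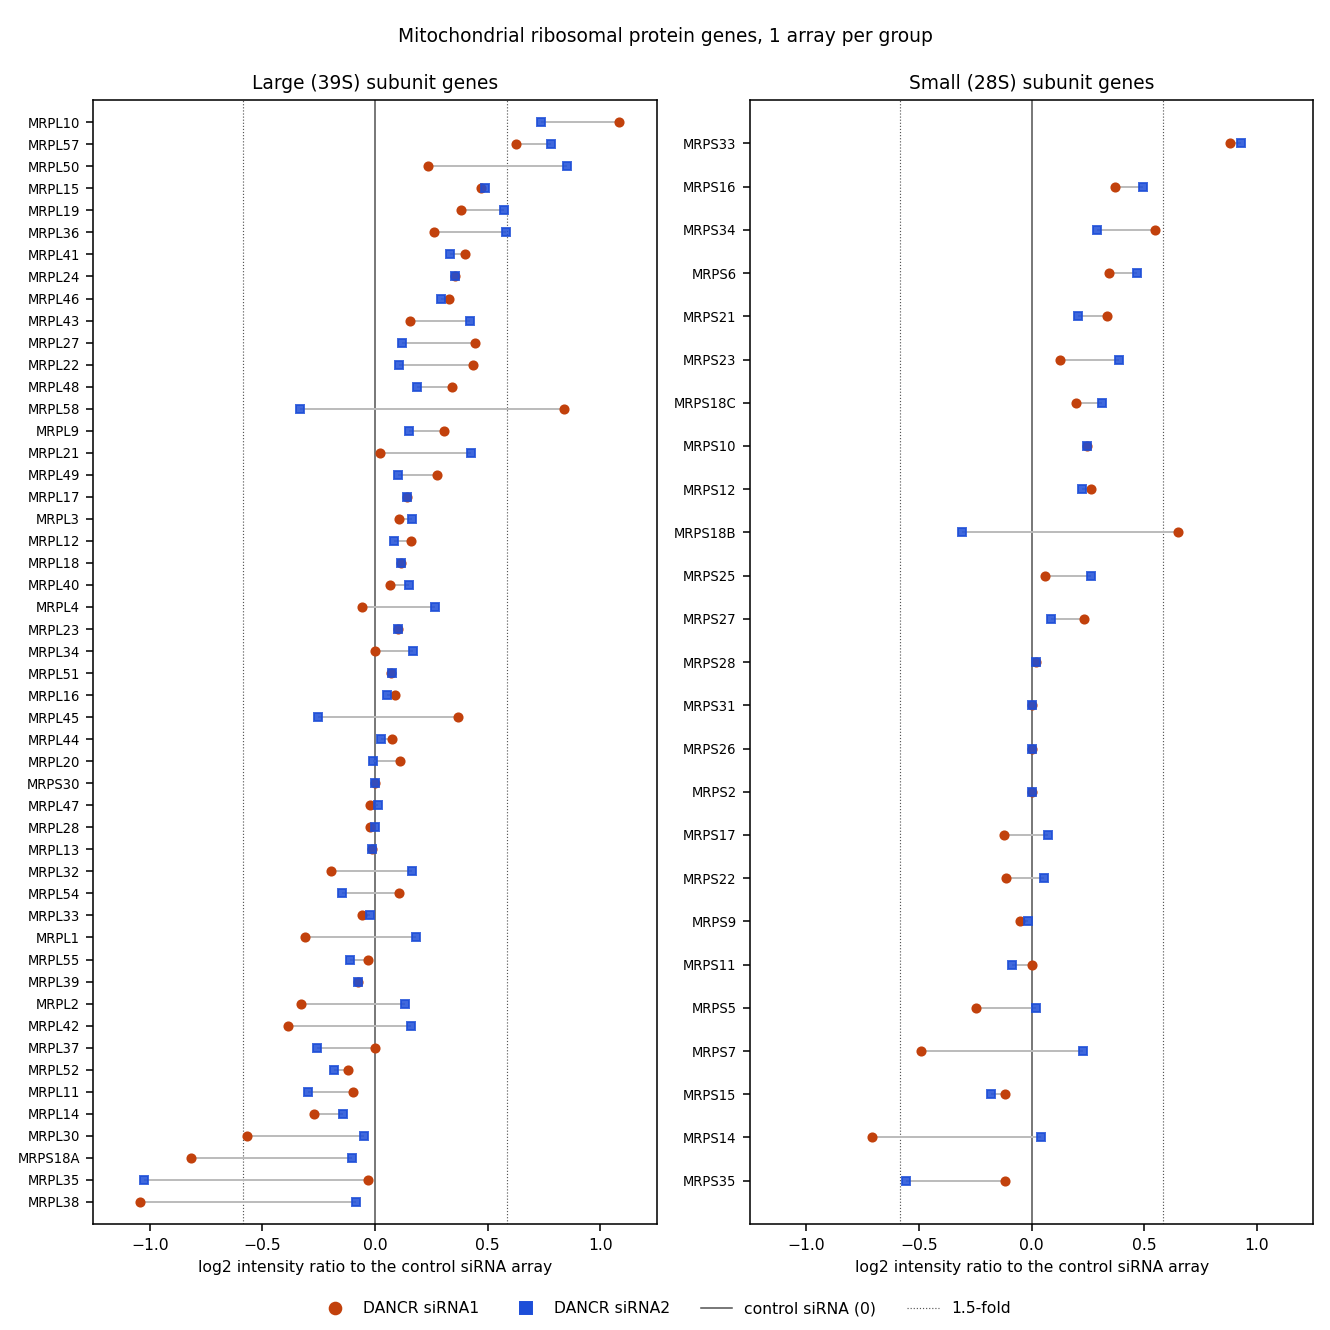
Log2 intensity ratio to the control siRNA array (x axis) of the 75 mitochondrial ribosomal protein genes (rows), with siRNA1 as circles and siRNA2 as squares, for the large subunit on the left and the small subunit on the right; dotted lines mark 1.5-fold. Most genes lie near 0, MRPL10, MRPL57 and MRPS33 lie beyond 1.5-fold above the control with each siRNA, and the genes with long connecting lines differ between the siRNAs.

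A change of at least 1.5-fold, 0.58 on the log2 scale, was used as the threshold for a call. On the siRNA1 array 5 of 75 genes were higher by that rule and 3 were lower, against 7.14% higher and 6.03% lower among all measured genes. For siRNA2 the counts were 4 higher and 1 lower, against 8.75% and 4.29%. These shares of the ribosomal set are near or below the background, so the counts set the genes apart from other genes in neither direction. The comparisons share the control array, and so does the next count. Higher with each of the siRNAs were 3 genes, or 4%, against 3.5% of all measured genes and 4.31% of genes in the same intensity range. None was lower with each siRNA, where the background was 1.29%, or 1.58% in the same intensity range.

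MRPS33, a small-subunit protein with no bacterial counterpart, had an intensity of 521 with siRNA1 and 539 with siRNA2, against 283 with the control siRNA. The siRNA arrays lay together, at 1.84-fold and 1.90-fold the control. MRPL10, which anchors the flexible stalk where translation factors dock, had 223 with siRNA1 and 175 with siRNA2, against 105 in the control, log2 ratios of 1.08 and 0.74. Each of these genes has 1 measured probe set, so the array offers no further reading of them. MRPL57, a large-subunit protein without a bacterial counterpart, had 946 and 1051, against 612 in the control, log2 ratios of 0.63 and 0.78. MRPL57 has 3 further measured probe sets, and all lay above the control with each siRNA. The dimmest of them gave 70.2 and 70.6, against 45.2 (0.64 and 0.64), and the others gave 0.22 and 0.22, and 0.36 and 0.33, short of the threshold.

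The sequences before the start sites of MRPL57 and MRPS33 are shown because these genes were higher with each siRNA, and those of MRPS18A and MRPS18B because these paralogs differed between the siRNAs, as described further on. No window was used for MRPL10 or MRPL35. Nuclear genes for mitochondrial proteins are known as targets of ETS factors such as GABP, of NRF1 and of YY1. Each window holds the 250 bases before the RefSeq gene start (GRCh38.p14), read on the gene's strand (for a gene with several starts, such as MRPS33, the first one listed), and capitals mark matches on either strand to CCGGAAG (ETS), GCGCANGCG (NRF1), AAGATGGCG (YY1) or CACGTG (E-box).
MRPL57 (chr13:21176408-21176657, + strand): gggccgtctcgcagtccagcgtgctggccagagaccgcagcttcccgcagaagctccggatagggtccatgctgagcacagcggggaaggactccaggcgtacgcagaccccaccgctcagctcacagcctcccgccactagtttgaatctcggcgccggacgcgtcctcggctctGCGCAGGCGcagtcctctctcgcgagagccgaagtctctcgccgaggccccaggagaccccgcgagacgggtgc
MRPS33 (chr7:141014953-141015202, - strand): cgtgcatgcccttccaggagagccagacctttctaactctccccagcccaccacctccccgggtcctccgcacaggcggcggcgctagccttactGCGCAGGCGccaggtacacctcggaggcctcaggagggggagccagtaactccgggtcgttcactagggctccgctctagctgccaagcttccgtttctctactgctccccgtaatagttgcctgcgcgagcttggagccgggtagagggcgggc
MRPS18A (chr6:43687792-43688041, - strand): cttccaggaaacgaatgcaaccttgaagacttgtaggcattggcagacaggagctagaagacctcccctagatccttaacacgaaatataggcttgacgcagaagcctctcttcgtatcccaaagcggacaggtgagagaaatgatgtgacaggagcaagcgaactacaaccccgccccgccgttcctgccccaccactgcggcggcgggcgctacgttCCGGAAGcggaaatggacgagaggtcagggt
MRPS18B (chr6:30617590-30617839, + strand): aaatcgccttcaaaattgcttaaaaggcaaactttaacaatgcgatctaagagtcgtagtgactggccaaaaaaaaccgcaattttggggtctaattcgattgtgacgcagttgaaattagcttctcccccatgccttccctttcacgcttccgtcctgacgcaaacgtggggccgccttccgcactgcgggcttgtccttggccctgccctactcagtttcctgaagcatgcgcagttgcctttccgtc

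MRPL57 and MRPS33 each held 1 NRF1 match, starting 74 and 155 bases before the start, and the matched letters were the same in both. MRPS18A held 1 ETS match, starting 31 bases before its start, and MRPS18B held none of the 4 motifs. Over the 67 mitochondrial ribosomal protein genes with a window, 22 (32.8%) held the ETS letters, against 8.82% of all 27305 windows. The NRF1 letters were in 13 of them (19.4%), against 7.02% of all windows, and the YY1 letters in 3 (4.48%), against 0.641%. The E-box was in 6 (8.96%), against 6.49%. A first scan used 1 more letter of the NRF1 motif, and the motif was shortened after that result was seen. With the longer form the letters were in 8 of 67 windows (11.9%), against 5.53% of all windows. Letters that match are a description of the window and not evidence of binding.

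After these 3 genes, the next highest by the smaller of the ratios were short of 1.5-fold. MRPL15, a core large-subunit protein, had 1367 with siRNA1 and 1383 with siRNA2, against 986 in the control (0.47 and 0.49). MRPS16, a small-subunit protein that is mutated in a fatal mitochondrial disease, had 422 and 461, against 327 (0.37 and 0.50), and its other probe set gave 0.18 and 0.36. MRPL19 had 102 and 116, against 77.8 (0.38 and 0.57), though its other probe set, at 12.5 on every array, showed no difference. In MRPS6, which lies in the small subunit, the values were 527 and 575, against 416 (0.34 and 0.47). With siRNA2, MRPL19 and MRPL36 (994, against 665 in the control, 0.58) lay just under the threshold. At the other end MRPL14 had 609 and 666, against 735 in the control (-0.27 and -0.14), MRPS15 had 950.2 and 911, against 1033 (-0.12 and -0.18), and MRPL52 had 607 and 581, against 659 (-0.12 and -0.18). The dimmer MRPS15 probe sets showed no decrease, with equal values on every array or ratios of 0.02 and 0.00. That of MRPL52 gave -0.18 and -0.19. No gene lay further below the control than MRPL14 by the smaller of its differences.

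Several genes had equal or nearly equal values on the 3 arrays. MRPS2, MRPS26 and MRPS31 had 295, 468 and 445 on each array, with no difference in any digit deposited. MRPS30 had 459.6 with siRNA1 and 459 with siRNA2, against 459 in the control, and MRPL13 had 625 and 625, against 630.3. Exact equality over the 3 arrays was found for 3 of the 75 genes, 1492 of all 12436 measured genes and 32.1% of all 54675 probe sets. The source of these ties was not tested. A log2 ratio of exactly 0 is therefore not read here as a measure of stability. Between the siRNA arrays the ratio was exactly 0 in 11 of the 75 genes and 2668 of all 12436. Ratios to the control that are equal for this reason are likewise not read as agreement of the siRNAs.

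Some genes differed between the siRNAs. Set against siRNA2, siRNA1 was past 1.5-fold higher in 4 of 75 genes and lower in 5, against 5.21% and 8.57% of all measured genes, so these counts too were near or below the background. The genes higher with siRNA1 were MRPL58, MRPL35, MRPS18B and MRPL45, and those lower with siRNA1 were MRPL38, MRPS14, MRPS7, MRPS18A and MRPL50. Of these 9 genes 6 have more than 1 measured probe set, and in all 6 the probe sets pointed the same way in this comparison.

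MRPL35, the mitochondrial counterpart of a small bacterial large-subunit protein, had an intensity of 761 with siRNA1 and 382 with siRNA2, against 778 with the control siRNA. Only the siRNA2 array stood apart, at a log2 ratio of -1.03 to the control, while siRNA1 was at -0.03. A second probe set gave 171 and 73.7, against 178 (-0.05 and -1.27), and the dimmest of all gave 39.5 and 22.9, against 49.9 (-0.34 and -1.12). All 3 probe sets thus put MRPL35 at least 2-fold lower with siRNA2, and it was the 1 gene past 1.5-fold lower in that array. MRPS35, a small-subunit protein, was next below the control with siRNA2 at 680 and 501, against 737 (-0.12 and -0.56). The siRNA2 array also had the highest 3' to 5' ratios, 14.4 for ACTB and 1.355 for GAPDH. The GAPDH ratio was 1.285 with siRNA1 and 1.247 with the control siRNA. The part of these ratios in the MRPL35 and MRPS35 values was not tested.

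MRPS18A, MRPS18B and MRPS18C are 3 human relatives of the single bacterial S18 protein. MRPS18C occupies the S18 site of the small subunit, and MRPS18A is part of the large subunit. Their values differed in direction. MRPS18A had 145 with siRNA1 and 238 with siRNA2, against 255 with the control siRNA, and its other probe set had 152 and 233, against 222. It was lower with siRNA1 on each probe set, at -0.82 and -0.55, whereas siRNA2 was at -0.10 and 0.07. MRPS18B had 693 with siRNA1 and 357 with siRNA2, against 442, and its other probe set had 371 and 188, against 284. On each probe set siRNA1 was above the control (0.65 and 0.38) and siRNA2 below it (-0.31 and -0.59), so that the siRNA arrays lay 0.96 and 0.98 apart. MRPS18C had 706 and 765, against 616, ratios of 0.20 and 0.31.

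MRPL58, a peptidyl-tRNA hydrolase built into the large subunit that can release stalled chains, had 439.5 with siRNA1 and 195 with siRNA2, against 246 with the control siRNA. It showed the widest gap between the siRNAs in the set, 2.25-fold, with siRNA1 above the control (0.84) and siRNA2 below it (-0.33), on 1 probe set. MRPL45, which ties the ribosome to the inner membrane at the exit of the nascent chain, had 271 and 177, against 210.1 (0.37 and -0.25). MRPL38, of the central protuberance, had 29.5 with siRNA1 and 57.2 with siRNA2, against 60.7 (-1.04 and -0.09). Its other probe set, at 24.2 and 31.5, against 30.2, gave -0.32 and 0.06.

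MRPS14 and MRPS7 belong to the head of the small subunit. MRPS14 had 226 with siRNA1 and 381 with siRNA2, against 370.04 with the control siRNA (-0.71 and 0.04). Its second probe set had 10.5 and 25.3, against 17.9, near the floor with siRNA1 (-0.76 and 0.50). MRPS7 had 213 and 352, against 299.8 (-0.49 and 0.23), on 1 probe set. MRPL50 had 126 and 193, against 106 (0.24 and 0.85), and its other probe set had 43.0 and 58.8, against 33.5 (0.36 and 0.81). In these genes siRNA1 lay below siRNA2, but MRPL50 was above the control with each of them and MRPS14 and MRPS7 were not. MRPL30, at 113 and 162 against 168 (-0.57 and -0.05), stood just short of the threshold with siRNA1 on its brightest probe set. Its dimmer probe sets gave -0.23, -0.05 and -0.36 with siRNA1.

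**Figure D2:**
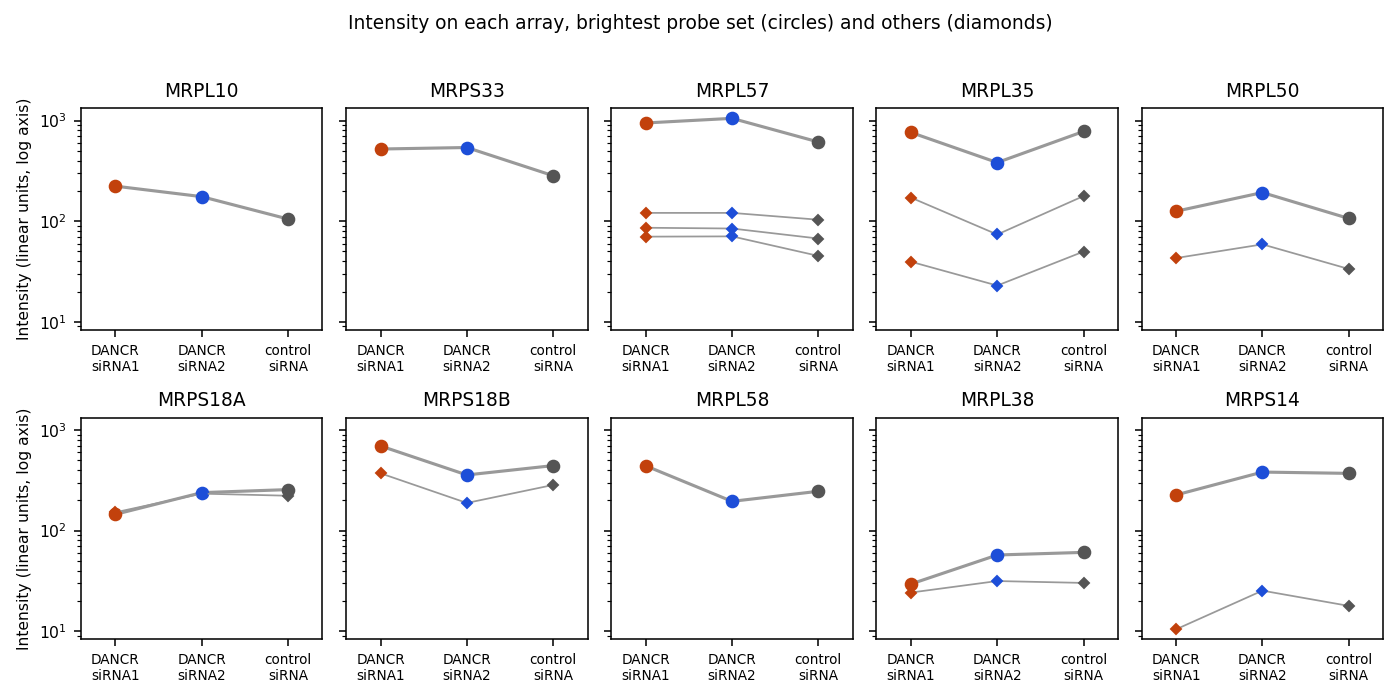
Intensity on the siRNA1, siRNA2 and control arrays (linear units on a log axis) for 10 of the genes named in the text, with the brightest probe set as circles and other measured probe sets as diamonds, joined within a probe set. MRPL10, MRPS33 and MRPL57 are above the control with each siRNA, all 3 MRPL35 probe sets dip with siRNA2, and the MRPS18A and MRPS18B probe sets move in opposite directions with siRNA1.

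By subunit, the medians lay close together. The median of large-subunit genes was 0.08 (siRNA1) and 0.11 (siRNA2), and small-subunit genes 0.02 and 0.07. Proteins with a bacterial counterpart had medians of 0.09 and 0.12 in the large subunit (29 genes) and 0.00 and 0.07 in the small one (15 genes). Those without one had 0.08 and 0.03 in the large subunit (21 genes) and 0.04 and 0.07 in the small one (10 genes). Of the S18 relatives, MRPS18A was listed without a counterpart and MRPS18B and MRPS18C with one, so this split is not strictly by descent. With each siRNA 3 of 50 large-subunit genes were past 1.5-fold higher, against 7.14% (siRNA1) and 8.75% (siRNA2) of all measured genes. These were MRPL10, MRPL57 and MRPL58 with siRNA1, and MRPL10, MRPL57 and MRPL50 with siRNA2. In the small subunit 2 of 25 were higher with siRNA1, MRPS33 and MRPS18B, and 1 with siRNA2, MRPS33. Past 1.5-fold lower in the large subunit were 2 genes with siRNA1, MRPL38 and MRPS18A, and 1 with siRNA2, MRPL35. In the small subunit 1 was lower with siRNA1, MRPS14, and none with siRNA2. The shares of all measured genes that were lower were 6.03% and 4.29%.

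Proteins that line the exit of the polypeptide tunnel were 7, and 6 of them were above the control with siRNA1 and 5 with siRNA2. Of all 12436 measured genes, 5257 and 5595 were above it. None passed 1.5-fold, and the group medians were 0.14 and 0.10. MRPL22 had 893 with siRNA1 and 712 with siRNA2, against 662 in the control (0.43 and 0.11), and MRPL24 had 352 and 352, against 276 (0.35 and 0.35). MRPL17 and MRPL23 were at 0.14 and 0.10 with each siRNA. In 4 of the 7 genes, MRPL17, MRPL23, MRPL24 and MRPL39, the siRNA arrays had the same value in every digit, and the source of such ties was not tested. MRPL39, at 798 and 798 against 840.2, was at -0.07 with each, and MRPL44, a protein with an RNase III-like fold, was at 0.08 and 0.03.

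Of the stalk proteins 3 were measured on probe sets of their own. MRPL10 was past the threshold, as described above, but its partners were not. MRPL12, which forms the stalk on MRPL10 and also binds the mitochondrial RNA polymerase, had 315 with siRNA1 and 299.6 with siRNA2, against 282 in the control (0.16 and 0.09). MRPL11, at the base of the stalk, had 385 and 335, against 412 (-0.10 and -0.30). The central protuberance, a crown of mostly mitochondria-specific proteins, had 10 measured members with medians of 0.09 and 0.06. MRPL46 had 306 and 299, against 244 (0.33 and 0.29), MRPL48 had 0.34 and 0.19, and MRPL27 had 0.44 and 0.12. MRPL18 (0.11 and 0.11) and MRPL40 (0.06 and 0.15) lay nearer the control, and MRPL55 was at -0.03 and -0.11. Past 1.5-fold in this group were MRPL58, higher, and MRPL38, lower, each with siRNA1 only (0.84 and -1.04, as described above).

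Other subunits carry no MRPL or MRPS symbol. Of 5 such genes 4 were measured, with medians of 0.05 with siRNA1 and -0.03 with siRNA2. PTCD3, a pentatricopeptide protein of the small subunit, had 428 and 454, against 383 in the control (0.16 and 0.25), and CHCHD1 had 725 and 739, against 770.4 (-0.09 and -0.06). DAP3, a GTP-binding protein of the small subunit, had 585 and 317, against 549 (0.09 and -0.79). It was past 1.5-fold lower with siRNA2 and near the control with siRNA1, and none of the 4 was past 1.5-fold with each siRNA.

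Assembly factors, which modify and fold the mitochondrial rRNAs, were measured for 23 of 24 listed genes and had medians of 0.00 with each siRNA. Past 1.5-fold higher with each siRNA were 2 of the 23, against 3.5% of all measured genes, and none was lower with each, against 1.29%. YBEY, an endoribonuclease needed for the small subunit, had 201 with siRNA1 and 143 with siRNA2, against 92.9 with the control siRNA (1.11 and 0.62). RCC1L, a factor for the large-subunit rRNA, had 82.5 and 75.2, against 43.8 (0.91 and 0.78). TFB1M, the methyltransferase of the small-subunit rRNA, had 134 and 136, against 95.5 (0.49 and 0.51). DHX30, an RNA helicase, had 137 and 191, against 214 (-0.64 and -0.17). MTG1, a GTPase of large-subunit assembly, had 55.8 and 117, against 99.2 (-0.83 and 0.24). Both were past 1.5-fold lower with siRNA1 and not with siRNA2.

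Translation factors of mitochondria were measured for 12 of 13 genes, with medians of 0.18 with siRNA1 and -0.02 with siRNA2. The release factor MTRF1L had 136 with siRNA1 and 155 with siRNA2, against 235 with the control siRNA, log2 ratios of -0.79 and -0.60. It was the 1 factor of 12 past 1.5-fold lower with each siRNA, against 1.29% of all measured genes, and none was higher with each, against 3.5%. The initiation factor MTIF2 had 474 and 213, against 364 (0.38 and -0.77), and the elongation factor TUFM had 604 and 1165, against 796 (-0.40 and 0.55). These had the widest gaps between the siRNAs among the factors, in opposite directions. MTRF1, a relative of MTRF1L, lay above the control where MTRF1L lay below it, at 50.9 and 43.9, against 34.9 (0.54 and 0.33). A further elongation factor, GFM1, had 748 and 725, against 581 (0.37 and 0.32), and TACO1, an activator of COX1 translation, had 146 and 155, against 134 (0.12 and 0.21).

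The ribosomal set was then placed beside its cytosolic and respiratory counterparts, with no test, as each value is from 1 array. Cytosolic ribosomal protein genes, 59 of them measured, were at a median of 0.02 (siRNA1) and 0.00 (siRNA2). Of these, 93.2% and 96.6% lay within 0.25 of the control, more than the 58.7% and 65.3% of the mitochondrial set. Their median intensity was 5430.1, against 447 for the mitochondrial set, and the part of brightness in that difference was not tested. Nuclear-encoded respiratory chain and ATP synthase genes, 73 of them measured at a median intensity of 1256, had medians of 0.03 and 0.14, with 72.6% and 76.7% within 0.25. Against siRNA2, siRNA1 was lower in 52 of the 73 respiratory genes and in 35 of the 75 mitochondrial ribosomal genes, with medians of -0.12 and 0.00. Over all measured genes it was lower in 5198 of 12436, with a median of 0.00.

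**Figure D3:**
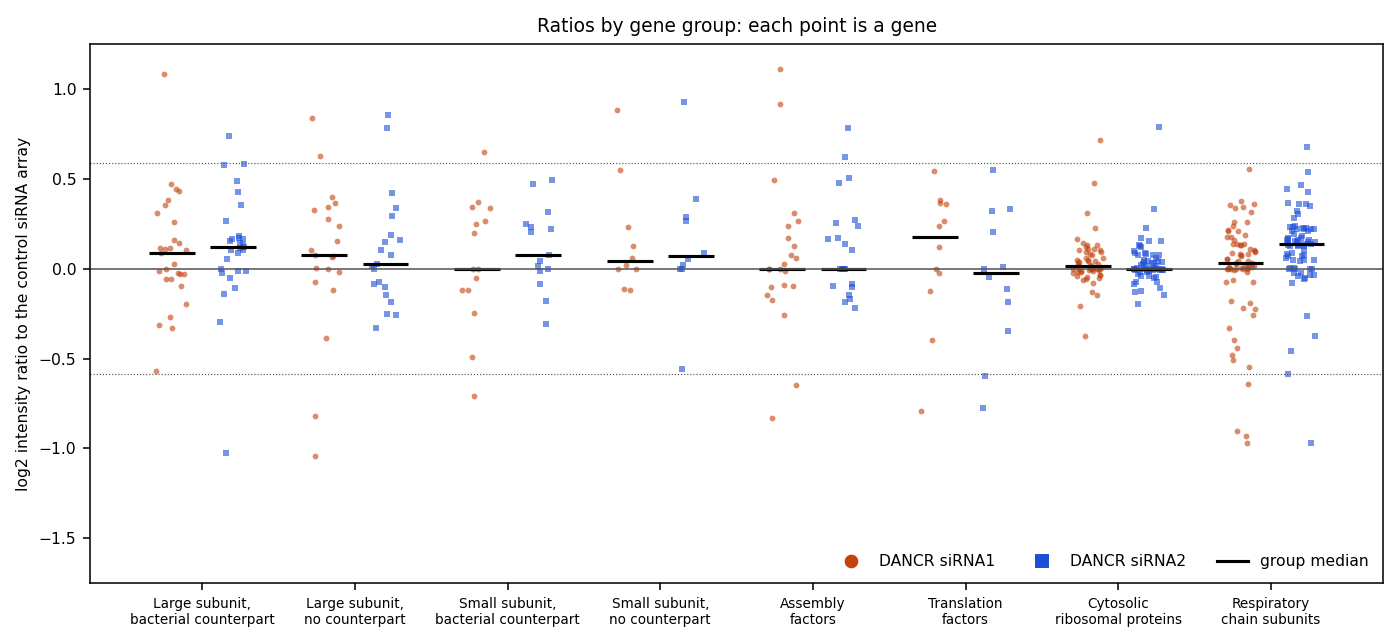
Log2 intensity ratio to the control siRNA array (y axis) for each measured gene of 8 groups (x axis), with siRNA1 as circles and siRNA2 as squares, black bars at the group medians and dotted lines at 1.5-fold. The medians of the 4 mitochondrial ribosomal groups lie between 0.00 and 0.12, and cytosolic ribosomal genes are packed more tightly around 0.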

How the data were processed

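The deposited table holds 1 intensity per probe set and array on a linear scale, which the authors had already brought to a common scale by a method not given in the sources used here. GCOS 1.4 is named in the submitters' processing notes, and per the labels' protocols biotin-labelled cRNA was hybridised to the arrays. Probe sets were assigned to genes by the supplied platform annotation, updated through gene IDs to RefSeq (99.9% of single-gene probe sets matched). Of 54675 probe sets, 41097 named 1 gene, 1801 several and 11777 none, and only the first kind was used.

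Values under the 50th percentile were set to it before log2 ratios were taken. The number of arrays limits the precision, and no p-value was computed with 1 array per group. Genes were named by rule: those past 1.5-fold with each siRNA, the 8 most above and 8 most below by the smaller ratio, 5 at each end between the siRNAs, the 5 with the smallest range, members of the structural groups, up to 6 with discordant probe sets, and up to 4 of each further list. The members, lists and rules were chosen with earlier results of these data known. MRPL4, MRPL30, MRPL36, DAP3, MTG1, MTIF2 and TUFM were named after their values were seen. Also chosen after a first run were the background in the same intensity range, the promoter motifs, the 1.2-fold limit for opposite directions, and corrections to the symbols in the comparison lists (COX4I1, COX4I2 and COX7A2L added, 1 gene removed). The alternatives were other floors, centring, quantile normalisation, other choices of probe set and other thresholds. The counting was tested on simulated data. Python 3.11.15, numpy 2.4.6, pandas 2.3.3 and matplotlib 3.10.9 were used.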

Additional observations from a re-analysis of the deposited data

Results flagged for a closer look

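MRPL58 and MRPS18B stood on opposite sides of the control with the 2 siRNAs, each by at least 1.2-fold. The log2 ratios of MRPL58 were 0.84 with siRNA1 and -0.33 with siRNA2, and those of MRPS18B were 0.65 and -0.31. Each siRNA is 1 array and the difference was not tested. MRPS18B kept these signs on its other probe set, and MRPL58 has no other measured one.

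A pair of mitochondrial ribosomal protein genes was read only by probe sets that name several genes, so they are not among the 75. The probe set of MRPS24 and the read-through gene URGCP-MRPS24 had 2196 with siRNA1 and 2307 with siRNA2, against 2300.2 in the control. That of MRPL53 and CCDC142 had 539 and 519.5, against 479.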

How the results depend on the processing

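The median log2 ratios of the mitochondrial ribosomal set moved by at most 0.1 under every planned setting, namely floors at the 30th and 70th percentile or none, median-centring, quantile normalisation, a median across the probe sets of each gene, and leaving out _s_at, _x_at and _a_at probe sets. The medians themselves were only 0.07 (siRNA1), 0.10 (siRNA2) and 0.00 (between the siRNAs). A limit of 0.1 therefore cannot show that their signs held. The 3 genes higher with each siRNA were 9 at a threshold of 0.32 on the log2 scale and 0 at 2-fold. Of all 12436 measured genes, 89 were at least 2-fold higher with each siRNA. No background is given here for the 0.32 threshold, so the 9 is not read as a result about the set. At 1.5-fold the count was 1, MRPL10, without _s_at, _x_at and _a_at probe sets, where only 41 of the 75 genes could be measured. All measured probe sets of MRPS33 and MRPL57 are of those kinds, so that setting removed these genes and could not test them. The count was 2, MRPL10 and MRPS33, by the median over probe sets. It was also 2 when every measured probe set of a gene had to pass, a setting added after the data were seen. The count of genes lower with each siRNA was 0 under each of these settings. Single genes depended on the probe set. For the 43 members named by rule, 18 log2 ratios moved by more than 0.1 and 68 did not when the median over probe sets was taken. Without _s_at, _x_at and _a_at probe sets 12 moved and 42 did not. None of these ratios that had passed 1.5-fold changed sign. MRPL4, MRPL30 and MRPL36 were named later and are not in these counts, and the MRPL4 probe sets disagreed, as described below. The floors and median-centring moved none by more than 0.1, but every gene lay above the main floor and the array medians were nearly equal, so those settings had little to move. Quantile normalisation moved none by more than 0.1, but it too had little to move. The deposited arrays were already on a common scale, with mean intensities of 96.3 (siRNA1), 96.5 (siRNA2) and 95.3 (control). No paired analysis was possible because each group has 1 array. With 1 array per group, the spread between transfections is unknown, and a difference between siRNAs cannot be told apart from a difference between arrays.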

Other observations

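Factors that transcribe the mitochondrial genome or drive nuclear genes for mitochondrial proteins were measured for 13 of 14 listed genes, and their medians were -0.13 with siRNA1 and 0.28 with siRNA2. None passed 1.5-fold with each siRNA. TFB2M, which melts mitochondrial promoters for the RNA polymerase, had 331 with siRNA1 and 365 with siRNA2, against 483 in the control (-0.55 and -0.41). GABPA, the ETS subunit of GABP, had 139 and 113, against 91.3 (0.60 and 0.30), and its partner GABPB1 had 64.2 and 54.9, against 79.5 (-0.31 and -0.53). YY1, a zinc finger factor, had 1056 and 1044, against 840.5 (0.33 and 0.31).

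The probe sets of some genes disagreed. MRPL4 had 171 with siRNA1 and 214 with siRNA2, against 178 in the control, on its brightest probe set (-0.06 and 0.26), but 158 and 86.9, against 61.4, on the next (1.36 and 0.50), and 85.5 and 74.3, against 56.3, on the dimmest (0.60 and 0.40). The brightest MRPL43 probe set gave 0.42 with siRNA2 and the dimmest -0.48. MRPS23 gave 0.39 with siRNA2 on the brightest probe set and -0.33 on the other, at 21.2 against 26.7 in the control. MRPL2 gave -0.33 with siRNA1 on one probe set and 0.22 on the other. Among 19 genes with more than 1 probe set of mean intensity above 50, the range of ratios within a gene was 0.14 (siRNA1) and 0.17 (siRNA2) at the median.

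The antisense transcript MRPL20-AS1 had 39.9 with siRNA1 and 51.2 with siRNA2, against 46.2 in the control, and the pseudogene MRPL45P2 lay below the floor on every array.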
